A study of Homo sapiens with 20 samples.

Results

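The genes described here encode the proton pump of the lysosome, the vacuolar ATPase, with its accessory proteins, the cathepsins, which are the proteases that digest protein inside the lysosome, and the lysosome-associated membrane proteins LAMP1, LAMP2 and LAMP3. They were chosen by symbol: every gene whose name in the array annotation begins with ATP6V0 or ATP6V1, is ATP6AP1 or ATP6AP2, is CTS followed by a single letter, or is LAMP1, LAMP2 or LAMP3. This gave 41 of 19775 measured genes, carried by 87 probe sets. They comprise 12 genes of the V1 sector, 8 of the V0 sector, 2 accessory genes, 15 cathepsins, the 3 LAMP genes and 1 antisense RNA, ATP6V0E2-AS1, which the symbol pattern also caught.

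Expression was measured on 20 whole-genome arrays in a human intestinal epithelial line, Caco-2, which derives from a colon carcinoma and had been left to differentiate on inserts for 5 days. In a first set of 14 arrays, labelled from 5 µg of RNA, each of 7 groups had 2 arrays. One group was the untreated control, kept in medium for 8 h. Another 3 were co-cultured for 8 h, at 20 to 100 bacteria per cell, with the live probiotics Lactobacillus acidophilus NCFM, Bifidobacterium lactis 420 and, in the last, Lactobacillus salivarius Ls-33. The other 3 had the cell-free supernatants of these strains added at 10% for 24 h. In a second set of 6 arrays, labelled from 1 µg, 3 arrays were untreated and 3 had 5% supernatant, free of cells, of the enterohaemorrhagic pathogen Escherichia coli O157:H7, all for 24 h. The question put by the design is how the epithelial cells respond to probiotic bacteria, to their secreted products and to the products of a pathogen. Each treatment was set against the medium of its own array set, so all 6 probiotic comparisons share the same 2 medium arrays, the probiotic supernatants at 24 h are compared with medium at 8 h, and there time and treatment cannot be told apart. Bacteria were grown in MRS broth (E. coli in LB broth) with 1.0% glucose, and uninoculated broth was not analysed here. Since the probiotic samples are described as run in duplicate, both arrays of such a group may stem from a single culture. In that case the p-values reflect only a spread between arrays that may be technical.

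The vacuolar ATPase is a rotary motor. Its cytosolic V1 sector splits ATP, with the A and B subunits forming the catalytic ring, and its V0 sector passes protons through the membrane by a ring of c subunits held against an a subunit. The acid it makes lets cathepsins mature and work. The cathepsins fall into cysteine proteases (CTSB, CTSC, CTSF, CTSH, CTSK, CTSL, CTSO, CTSS, CTSV, CTSW and CTSZ), aspartic proteases (CTSD and CTSE) and serine proteases (CTSA and CTSG). LAMP1 and LAMP2 are heavily glycosylated proteins that line the lysosomal membrane. In enterocytes these genes serve endocytosis, autophagy and the turnover of membrane proteins. Many lysosomal genes carry in their promoters an E-box with the core CACGTG, part of the element known as CLEAR, through which the transcription factors TFEB, TFE3 and MITF act.

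The letters CACGTG were looked for in RefSeq promoter windows of assembly GRCh38.p14, each running from 250 bases before to 50 after a gene's start. They read the same on both strands. A window was held for 27 of the 41 genes, and 8 of them (29.6%) contained the core, against 2396 of 27305 genes in all (8.77%). The longer form TCACGTG on either strand, every match of which also holds the core, was found in the same number of members and in 4.49% of all genes. LAMP1 had 6 copies, ATP6V0B, CTSA and CTSF had 2 each, and CTSD, ATP6V0D1, ATP6V1G1 and ATP6V0E2 had 1 each, that of ATP6V0E2 lying in both of its overlapping windows. A match in this window is a description of its letters, not a measured binding site. The stretches below are those of the tested genes that hold the core and are described later, shown 5′ to 3′ on the gene's strand with the core in capitals. They lie at chr13:113297039-113297108 on the plus strand for LAMP1 (200 to 131 bases before the start, with 4 of its 6 copies), chr20:45891279-45891320 on the plus strand for CTSA, chr11:1763958-1763989 on the minus strand for CTSD, chr1:43974890-43974936 on the plus strand for ATP6V0B, chr16:67481201-67481232 on the minus strand for ATP6V0D1, chr9:114587695-114587726 on the plus strand for ATP6V1G1 and chr7:149872880-149872911 on the plus strand for ATP6V0E2.
LAMP1: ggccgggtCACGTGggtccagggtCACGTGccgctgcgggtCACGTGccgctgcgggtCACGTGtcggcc
CTSA: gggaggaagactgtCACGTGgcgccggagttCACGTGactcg
CTSD: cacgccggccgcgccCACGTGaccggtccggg
ATP6V0B: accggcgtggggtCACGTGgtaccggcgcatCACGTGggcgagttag
ATP6V0D1: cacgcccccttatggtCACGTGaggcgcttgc
ATP6V1G1: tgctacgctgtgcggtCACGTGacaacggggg
ATP6V0E2: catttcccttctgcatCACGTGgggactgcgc
Of these 7 genes, LAMP1, ATP6V0B and ATP6V0D1 were called higher with E. coli supernatant and CTSA, CTSD and ATP6V0E2 lower. ATP6V1G1 changed by 0.11 on the log2 scale and did not pass the test. The calls of LAMP1, ATP6V0D1 and CTSA were lost without a trend in limma's variance model (limma adjusted p = 0.14, 0.13 and 0.058). Those of ATP6V0B (higher), CTSD and ATP6V0E2 (both lower) held under every alternative run. Whether the 7 genes move together was not tested.

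Of the 41 genes, 32 had a mean signal above the floor of the test (a log2 signal of 2.74 in the first set and 2.78 in the second, the 40th percentile of all named genes). Nothing is said below of change in the other 9. These are ATP6V0D2, ATP6V1B1, ATP6V1G2 and ATP6V1G3, which are subunit forms of specialised acid-secreting, bone or nerve cells, the cathepsins CTSE, CTSF, CTSS and CTSW, and ATP6V0E2-AS1. ATP6V0D2 lay between 1.81 and 2.36 over the 20 arrays and CTSS, the cathepsin of antigen-presenting cells, between 1.99 and 2.91. Gene symbols were read from the probe set with the highest mean, and 20 of the 41 genes had more than 1. ATP6V1F and the readthrough ATP6V1G2-DDX39B fit the symbol rule too, but were carried only by probe sets with several symbols, and these 2 are not among the 41.

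In the first array set all 10 enterocyte markers (among them VIL1, CDH1 and FABP1) were above the floor, and in the second all but APOA1. The leukocyte markers PTPRC, CD163, MS4A1 and CD3E were below it, while LYZ, CD14, CSF1R and ITGAM were above. Of the fibroblast markers COL1A1, LUM and PDGFRA were above, DCN was below, and COL1A2 was above in the E. coli set only. The beta-actin control signal at the 3′ end exceeded that at the 5′ end, a sign of RNA quality and labelling, by 0.802 to 0.878 on the 8 h medium arrays, 1.08 to 1.54 on the co-culture arrays and 1.02 to 1.11 on the probiotic supernatant arrays. The excess was 1.90 to 2.17 on the 24 h medium arrays and 2.12 to 2.22 on the E. coli arrays. This measure therefore moved with co-culture and with the probiotic supernatants, and its part in the results below was not tested.

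With live bacteria, 13 of the 32 tested genes passed the test with NCFM (4 higher, 9 lower), 13 with B. lactis 420 (4 higher, 9 lower) and 14 with Ls-33 (4 higher, 10 lower). As shares these are 40.6%, 40.6% and 43.8%, beside 35.3%, 35.3% and 38.7% of all 11865 tested genes, so the number that changed is close to the background. By direction, 18.4%, 16.9% and 19.3% of all tested genes were lower and 16.8%, 18.3% and 19.4% higher in the same order. Most changes were small: 1 gene, CTSZ with NCFM, reached 2-fold. The median change of the 32 genes was -0.07, -0.00 and -0.09 on the log2 scale, and that of all tested genes -0.01, 0.01 and -0.01. Tests were made with limma and adjusted by the Benjamini-Hochberg method over all tested genes, with a threshold of 0.05. With 2 arrays a group, single arrays weigh heavily. The NCFM count was 6 without the second NCFM array and 8 without the second medium array. The B. lactis 420 count was 6 without the first medium array and 7 without the second B. lactis 420 array, and the Ls-33 count was 9 without the first medium array. Without a trend in limma's variance model the NCFM and B. lactis 420 counts were both 8. In 22, 24 and 21 of the 32 genes the arrays of NCFM, B. lactis 420 and Ls-33 did not overlap those of medium. Of these genes 13, 13 and 14 were called. With 2 arrays against 2, the lack of overlap given for single genes below is therefore weak evidence. Its share among all tested genes was not counted.

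**Figure D1:**
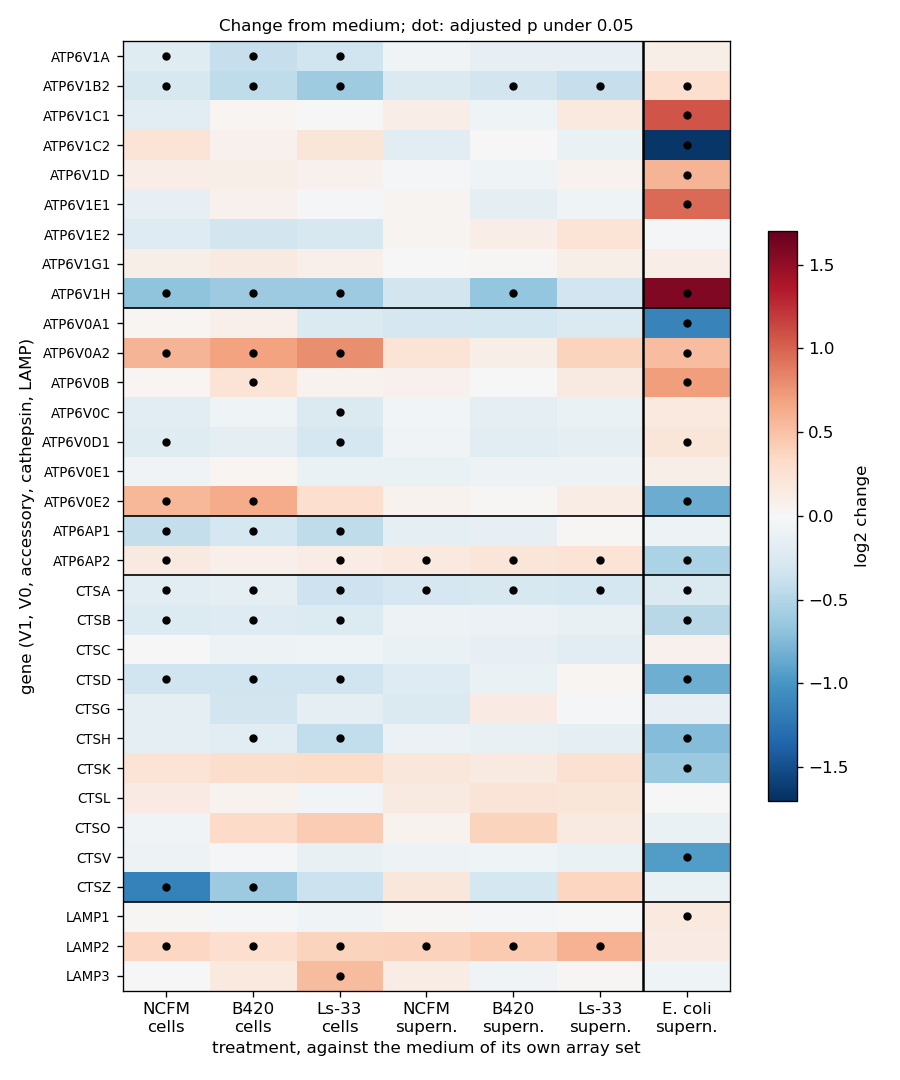
Log2 change of the 32 tested genes (rows, grouped by role) in 7 comparisons with medium (columns), red for higher and blue for lower, with a dot where the limma adjusted p was under 0.05. The cathepsin rows hold dots in blue cells only, the LAMP2 row is red with dots in all 6 probiotic columns, and the E. coli column holds the strongest colours in both directions.

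In the V1 sector, 3 of 9 tested genes fell with each strain and 0 rose (0, 1 and 0 were higher at an unadjusted p under 0.05 with NCFM, B. lactis 420 and Ls-33), and the same 3 genes were involved each time, beside the 18.4%, 16.9% and 19.3% of all tested genes that were lower. ATP6V1H, the H subunit that regulates the coupling of V1 to V0, read 6.86 and 6.70 on the 2 medium arrays, 6.05 and 6.16 with NCFM, 6.24 and 6.07 with B. lactis 420, and 6.13 and 6.20 for Ls-33. All 6 co-culture values were lower than both medium values. The log2 changes were -0.68, -0.62 and -0.61 (SE 0.17 each), at 0.0033, 0.0061 and 0.0061 as limma adjusted p-values. The NCFM call held without any 1 array. Leaving out the first medium array ended the other 2 calls, and leaving out the second B. lactis 420 array ended that of B. lactis 420, at adjusted p-values up to 0.060.

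ATP6V1B2, the B subunit that most tissues use, read 9.66 and 9.85 on the medium arrays, 9.49 on both NCFM arrays, 9.38 and 9.27 with B. lactis 420, and 9.09 and 9.22 for Ls-33. The co-culture arrays were again all below the medium arrays, and the Ls-33 arrays were the lowest. The changes were -0.27, -0.43 and -0.60 (SE 0.08), with limma adjusted p-values of 0.016, 0.00040 and 8.05e-06. ATP6V1A, the catalytic A subunit, read 10.52 and 10.61 with medium, 10.38 and 10.33 with NCFM, 10.18 and 10.17 with B. lactis 420, and 10.20 and 10.25 for Ls-33. Its changes were -0.21, -0.39 and -0.34 (SE 0.06; limma adjusted p = 0.016, 8.29e-05 and 0.00030). For both genes the call with NCFM, the smallest of the 3 changes, was lost without the second medium array or the second NCFM array (adjusted p up to 0.20 for ATP6V1B2 and 0.14 for ATP6V1A). The other 6 tested V1 genes (ATP6V1C1, ATP6V1C2, ATP6V1D, ATP6V1E1, ATP6V1E2 and ATP6V1G1) had changes between -0.31 and 0.23 that did not pass the test.

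The V0 sector showed changes in both directions. ATP6V0A1 and ATP6V0E1 did not pass the test with any strain, with changes of -0.25 to 0.08 and -0.11 to 0.03. For ATP6V0E1 with B. lactis 420, probe sets 201171_at and 236527_at read -0.49 and -0.62, both called (limma adjusted p = 0.041 and 0.015). ATP6V0A2, an a subunit known from endosomes and the Golgi, read 4.39 and 4.81 with medium, 4.95 and 5.39 with NCFM, 5.16 and 5.40 with B. lactis 420, and 5.25 and 5.53 for Ls-33. Every co-culture array was above both medium arrays, though the lowest NCFM array exceeded the higher medium array by less than the medium arrays differ from each other. It rose by 0.57, 0.68 and 0.79 (SE 0.20; limma adjusted p = 0.035, 0.013 and 0.0044). Each call was lost without the first medium array (adjusted p 0.29, 0.16 and 0.076), and each also without the second co-culture array of its strain. Another probe set of this gene, 229572_at, read 0.05, -0.12 and 0.04.

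ATP6V0E2, one of the forms of the small e subunit, read 6.39 and 6.53 with medium, 7.06 and 6.99 with NCFM, 7.19 and 6.97 with B. lactis 420, and 6.75 and 6.74 for Ls-33. It rose by 0.57 with NCFM and 0.63 with B. lactis 420 (SE 0.13; limma adjusted p = 0.0018 and 0.00073). With Ls-33 the arrays were above medium too, but the change of 0.29 did not pass the test. ATP6V0D1, the d subunit that joins the c ring to the stalk, read 11.39 and 11.43 with medium, 11.34 and 11.07 with NCFM, 11.29 and 11.20 with B. lactis 420, and 11.03 and 11.20 for Ls-33. It fell by 0.21 with NCFM and by 0.30 with Ls-33 (limma adjusted p = 0.032 and 0.0026), and changed by -0.17 with B. lactis 420, which did not pass the test. The NCFM call rests on the second NCFM array: without it the change was -0.07 (adjusted p = 0.47), and it was lost too without either medium array. The Ls-33 call was lost without the first Ls-33 array (adjusted p = 0.067). The proton-carrying ring subunits ATP6V0C (-0.25 with Ls-33; limma adjusted p = 0.013) and ATP6V0B (0.24 with B. lactis 420; limma adjusted p = 0.018) passed the test with 1 strain each. Both calls were lost without either medium array or without the first array of the strain (adjusted p up to 0.16).

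Of the accessory genes, ATP6AP1, which encodes a glycoprotein needed to assemble the pump, read 9.67 and 9.58 with medium, 9.29 and 9.14 with NCFM, 9.29 and 9.37 with B. lactis 420, and 9.17 and 9.23 for Ls-33. All co-culture arrays were lower than both medium arrays. It fell by 0.41, 0.30 and 0.43 (SE 0.09; limma adjusted p = 0.0012, 0.013 and 0.00071), of which the second was lost without the first medium array or the first array of that strain (adjusted p = 0.10 in both cases). ATP6AP2, the (pro)renin receptor, rose by 0.15 with NCFM and 0.13 with Ls-33 (limma adjusted p = 0.021 and 0.043). Its arrays were 12.25 and 12.20 with medium, 12.32 and 12.42 with NCFM, 12.25 and 12.37 with B. lactis 420, and 12.37 and 12.33 for Ls-33. These are the smallest called rises among the 32 genes with live bacteria. The Ls-33 call was lost without any 1 of the 4 arrays and with the replicate number as a block, the NCFM call without the second medium array or the second NCFM array (adjusted p 0.052 to 0.21 over these), and another probe set, 201444_s_at, read -0.14 and -0.02.

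**Figure D2:**
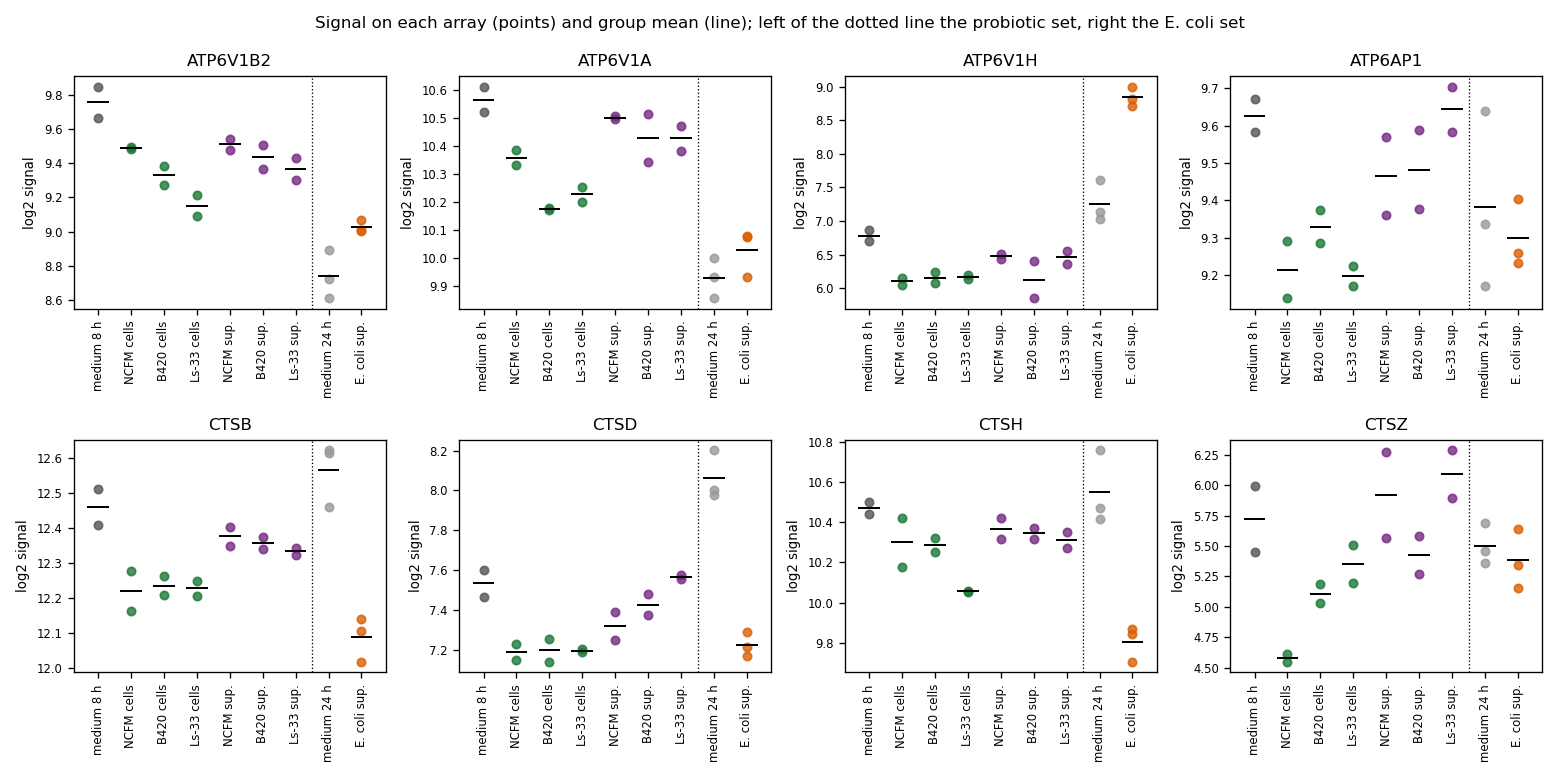
Log2 signal of 8 genes on each array (points) with the group mean (line); the dotted line separates the first array set from the E. coli set. For ATP6V1B2, ATP6V1A, ATP6V1H and ATP6AP1 the green co-culture points lie below the dark medium points, while in the E. coli set ATP6V1H and ATP6V1B2 lie above their medium and CTSB, CTSD and CTSH below it.

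Among the 11 tested cathepsins, 4, 5 and 4 fell with NCFM, B. lactis 420 and Ls-33 and 0 rose, also at an unadjusted p under 0.05, beside 18.4%, 16.9% and 19.3% lower and 16.8%, 18.3% and 19.4% higher among all tested genes. CTSB, an abundant cysteine protease, read 12.51 and 12.41 with medium, 12.28 and 12.16 with NCFM, 12.26 and 12.21 with B. lactis 420, and 12.20 and 12.25 for Ls-33. Every co-culture array was below both medium arrays. It fell by 0.24, 0.22 and 0.23 (SE 0.05; limma adjusted p = 0.00050, 0.00091 and 0.00058), in each case also without any 1 array. All 5 of its probe sets were lower and called with Ls-33, 4 with B. lactis 420 and 3 with NCFM, where 227961_at read 0.20 without passing the test.

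CTSD, the main aspartic protease of the lysosome, read 7.60 and 7.47 with medium, 7.23 and 7.15 with NCFM, 7.25 and 7.14 with B. lactis 420, and 7.19 and 7.20 for Ls-33. The 3 strains gave almost the same values, all below medium. The change was -0.34 with each strain (SE 0.11; limma adjusted p 0.020 to 0.023). The first medium array carries part of this: without it the changes were -0.28 with NCFM and -0.27 with the others, at adjusted p-values of 0.14 to 0.15. The calls were lost also without the second NCFM array, the second B. lactis 420 array or either Ls-33 array.

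CTSZ, a carboxypeptidase with an integrin-binding motif, read 5.45 and 6.0 with medium, 4.55 and 4.61 with NCFM, 5.19 and 5.03 with B. lactis 420, and 5.20 and 5.51 for Ls-33. The NCFM arrays were far below medium, and only the Ls-33 arrays overlapped it. The changes were -1.15, a 2.21-fold fall, with NCFM and -0.62 with B. lactis 420 (SE 0.23; limma adjusted p = 0.00063 and 0.042), and -0.37 with Ls-33, which did not pass the test. The B. lactis 420 call was lost without the second medium array, where the change was -0.35 (adjusted p = 0.38), or without either B. lactis 420 array.

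CTSH, an aminopeptidase, read 10.50 and 10.44 with medium, 10.42 and 10.18 with NCFM, 10.32 and 10.25 with B. lactis 420 and 10.06 on both Ls-33 arrays. It fell by 0.41 with Ls-33 (SE 0.07; limma adjusted p = 0.00013) and by 0.19 with B. lactis 420, where the adjusted p of 0.049 was lost without any 1 array (0.076 to 0.23). CTSA, the protective protein that shields lysosomal beta-galactosidase and neuraminidase, read 10.67 on both medium arrays, 10.51 and 10.46 with NCFM, 10.57 and 10.43 with B. lactis 420, and 10.26 and 10.37 for Ls-33. All co-culture arrays were lower than medium. It fell by 0.19, 0.17 and 0.35 (SE 0.06; limma adjusted p = 0.027, 0.040 and 0.00017). The calls with NCFM and B. lactis 420 were lost without either medium array or the second array of the strain (adjusted p up to 0.12 and 0.35), and with joint quantile normalization (0.27 and 0.13). The Ls-33 call held in each case. CTSL, a broad endopeptidase, changed by 0.14, 0.06 and -0.05 and did not pass the test. CTSC, CTSG, CTSK, CTSO and CTSV had changes between -0.31 and 0.43, none of which passed it.

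LAMP2 rose with every strain on the probe set that represents it here. It read 10.90 and 10.97 with medium, 11.31 and 11.27 with NCFM, 11.22 on both B. lactis 420 arrays, and 11.41 and 11.21 with Ls-33. All co-culture arrays were above both medium arrays. The changes were 0.36, 0.29 and 0.38 (SE 0.06; limma adjusted p = 8.84e-05, 0.00073 and 4.04e-05), also called without any 1 array. LAMP1, the most abundant protein of the lysosomal membrane, changed by 0.02, -0.03 and -0.06, with 95% intervals from -0.14 to 0.11 over the 3 strains, and did not pass the test. Its probe set 201551_s_at read -0.63 with NCFM (limma adjusted p = 0.00098). LAMP3, a family member induced by interferon and by stress of the endoplasmic reticulum, read 4.46 and 4.78 with medium and 5.05 and 5.28 with Ls-33, a rise of 0.54 (SE 0.19; limma adjusted p = 0.029). That call was lost without the first medium array or the second Ls-33 array (adjusted p up to 0.22). With NCFM and B. lactis 420 LAMP3 changed by -0.01 and 0.17 and did not pass the test.

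The cell-free supernatants of the probiotics moved fewer of these genes, against 8 h medium: 3 of 32 with NCFM (2 higher, 1 lower), 5 with B. lactis 420 (2 higher, 3 lower) and 4 with Ls-33 (2 higher, 2 lower). These are 9.38%, 15.6% and 12.5%, beside 11.3%, 15.2% and 16.6% of all tested genes, again near the background. Of all tested genes, 5.28%, 5.98% and 8.48% were higher and 5.98%, 9.2% and 8.14% lower. In 20, 19 and 21 of the 32 genes the supernatant arrays did not overlap those of medium, so most such genes were not called. LAMP2 read 11.37 and 11.27 with NCFM supernatant, 11.37 and 11.39 with that of B. lactis 420, and 11.52 and 11.53 with that of Ls-33, all above its medium values of 10.90 and 10.97. The rises were 0.39, 0.45 and 0.59 (SE 0.06; limma adjusted p = 0.00025, 5.56e-05 and 1.54e-06). ATP6AP2 rose by 0.16, 0.21 and 0.23 (limma adjusted p = 0.038, 0.0071 and 0.0027), with all 6 supernatant arrays (12.33 to 12.47) above both medium arrays. Its probe set 201444_s_at read -0.03, 0.03 and 0.11, none of which passed the test. Without a trend all 3 ATP6AP2 calls were lost (limma adjusted p = 0.24, 0.12 and 0.082). CTSA fell by 0.29, 0.28 and 0.30 (limma adjusted p = 0.0056, 0.0057 and 0.0028), with all 6 arrays (10.32 to 10.42) below medium. Without a trend its calls with NCFM and B. lactis 420 supernatant were lost (limma adjusted p = 0.062 and 0.057). The calls for CTSA were lost without the first NCFM supernatant array and without the second Ls-33 supernatant array (adjusted p = 0.087 and 0.060). These 3 genes passed the test with all 3 supernatants.

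The remaining calls with supernatants were in the V1 sector. ATP6V1B2 read 9.48 and 9.54 with NCFM supernatant, 9.51 and 9.37 with that of B. lactis 420, and 9.30 and 9.43 with that of Ls-33, beside 9.66 and 9.85 with medium. It fell by 0.32 with B. lactis 420 and by 0.39 with Ls-33 (limma adjusted p = 0.012 and 0.0028), and changed by -0.25 with NCFM, which did not pass the test. ATP6V1H read 6.40 and 5.85 with B. lactis 420 supernatant, a change of -0.66 (limma adjusted p = 0.011) that was -0.38 (adjusted p = 0.21) without the second of these arrays and was lost too without the first medium array (adjusted p = 0.087). The same second supernatant array also decided the B. lactis 420 calls of ATP6V1B2 and ATP6AP2 (adjusted p = 0.17 and 0.082 without it). Without the second medium array the ATP6V1B2 calls with both supernatants and the ATP6AP2 calls with NCFM and B. lactis 420 supernatant were lost, and that of ATP6AP2 with NCFM supernatant also without the first medium array or the first supernatant array (adjusted p up to 0.35). No cathepsin rose by limma's test, and at an unadjusted p under 0.05 the number higher was 0, 1 and 1, where the 1 is CTSL with changes of 0.15, 0.22 and 0.21. LAMP1 changed by 0.01, -0.03 and -0.00 and LAMP3 by 0.13, -0.06 and 0.02, none of which passed the test. The count was 1 without the first NCFM supernatant array, and with B. lactis 420 it was 2 without the second supernatant array and 3 without the second medium array.

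E. coli supernatant moved 19 of the 32 genes against 24 h medium, 9 higher and 10 lower. This is 59.4%, beside 64.1% of all tested genes (36.3% higher and 27.8% lower), so here too the number is no larger than the background. The pump and its accessory proteins gave 8 higher and 4 lower of 18, and the cathepsins 0 higher and 6 lower of 11, with 0 higher also at an unadjusted p under 0.05. The median change of the 11 cathepsins was -0.25 and that of all tested genes 0.05. One of the 6, CTSK, ended under the floor, which leaves 5 cathepsins measured above it on both sides. In 4 genes the change exceeded 2-fold, of which ATP6V1C2 also ended under the floor.

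In the V1 sector 5 genes rose and 1 fell of 9 tested, beside the 36.3% and 27.8% of all genes. ATP6V1H read 7.61, 7.04 and 7.14 with medium and 8.71, 9.0 and 8.81 with E. coli supernatant, a rise of 1.58 or 2.99-fold (SE 0.14; limma adjusted p = 1.44e-06). This is the gene that fell with each live probiotic, at 8 h and in the other array set. ATP6V1C1, the C subunit that holds V1 and V0 together, read 8.09, 8.14 and 8.16 with medium and 9.13, 9.21 and 9.28 with supernatant, a rise of 1.08 (SE 0.08; limma adjusted p = 3.15e-07). Its probe set 202872_at rose by 1.08 too (limma adjusted p = 5.92e-07), while 202873_at read 0.15 and 226463_at 0.00 (adjusted p = 0.49 and 0.98), neither called. ATP6V1E1, part of the outer stalk, read 9.37, 8.92 and 9.09 and then 10.04, 10.10 and 10.15, a rise of 0.97 (SE 0.10; limma adjusted p = 4.83e-06). In all 3 genes the supernatant arrays lay above all medium arrays.

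ATP6V1D, of the central rotor, rose by 0.58 (limma adjusted p = 1.64e-05), and ATP6V1B2 by 0.28 (limma adjusted p = 0.014), a call that was lost without the third supernatant array (adjusted p = 0.062). ATP6V1C2, a C subunit form of kidney, lung and other epithelia, went the other way from ATP6V1C1. It read 3.93, 4.48 and 4.77 with medium and 2.88, 2.81 and 2.53 with supernatant, a 3.15-fold fall (log2 change -1.65, SE 0.20; limma adjusted p = 1.6e-05). Its supernatant mean of 2.74 is under the floor of 2.78, so that it was tested on the strength of its medium arrays and the size of the fall is uncertain. Its other probe set, 1553989_a_at, read -1.10 (limma adjusted p = 0.00011). ATP6V1A read 10.00, 9.93 and 9.85 with medium and 10.08, 10.07 and 9.93 with supernatant. These groups overlap, and the change of 0.10 (95% interval -0.05 to 0.25) did not pass the test. ATP6V1E2 and ATP6V1G1 did not pass it either.

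The V0 sector was split as well. ATP6V0A1, the a subunit form of synaptic vesicles and lysosomes, read 7.54, 7.21 and 7.40 with medium and 6.23, 6.29 and 6.24 with supernatant, a fall of 1.13 or 2.19-fold (SE 0.12; limma adjusted p = 6.52e-06). The supernatant arrays were all below medium and close together, while its probe set 205095_s_at read -0.45 and did not pass the test (limma adjusted p = 0.11). ATP6V0E2 fell by 0.84 (limma adjusted p = 4.53e-05), where it had risen with NCFM and B. lactis 420 cells at 8 h in the other array set. ATP6V0B, a ring subunit, read 9.12, 8.78 and 9.25 with medium and 9.76, 9.71 and 9.84 with supernatant, a rise of 0.71 (SE 0.11; limma adjusted p = 9.67e-05). ATP6V0A2 rose by 0.53 (limma adjusted p = 0.0059) on its chosen probe set, while 229572_at fell by 0.91 (limma adjusted p = 0.0079), so no direction can be given for that gene. ATP6V0D1 rose by 0.20 at a limma adjusted p of 0.042 with overlapping arrays (10.78, 10.44 and 10.59 against 10.74, 10.86 and 10.82). Its call was lost without any 1 supernatant array, without the second medium array or without the third (adjusted p up to 0.14) and with the replicate number as a block. ATP6V0C and ATP6V0E1 did not pass the test.

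ATP6AP2 read 12.60, 12.75 and 12.71 with medium and 12.29, 12.03 and 12.12 with supernatant, a fall of 0.54 (SE 0.06; limma adjusted p = 1.33e-05). On this probe set, though not by a call on 201444_s_at, the 3 probiotic supernatants gave rises. ATP6AP1 changed by -0.08 and its arrays overlapped. The 2 sets of supernatant differ in dose, broth, array set and control, and the difference between them was not tested. The live co-cultures differ from the E. coli supernatant in format, time, array set and control, and that difference was not tested either.

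**Figure D3:**
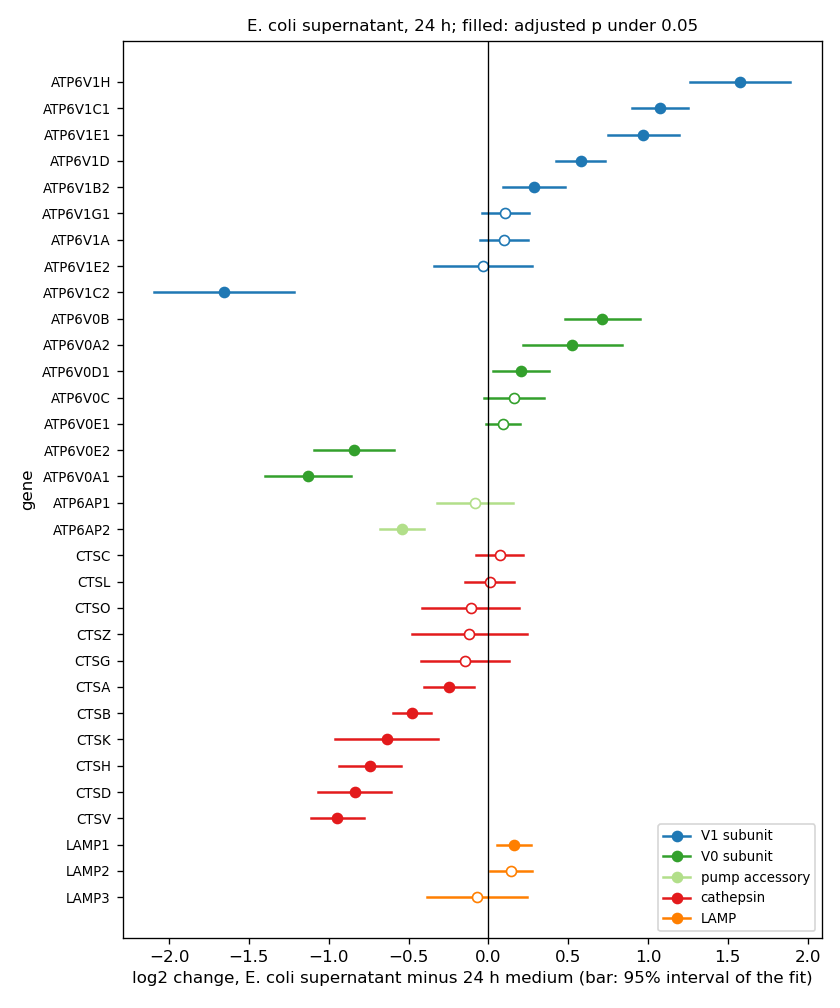
Log2 change with E. coli supernatant of the 32 tested genes, ordered within role, with the 95% interval of the limma fit as bars; filled circles passed the test. All 6 filled cathepsin points (red) lie left of 0, from CTSV at -0.95 to CTSA at -0.25, and the V1 points (blue) run from ATP6V1C2 at -1.65 to ATP6V1H at 1.58.

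Of the cathepsins, CTSV (cathepsin L2) read 10.67, 10.42 and 10.52 with medium and 9.60, 9.52 and 9.65 with E. coli supernatant, a fall of 0.95 or 1.93-fold (SE 0.08; limma adjusted p = 5.18e-07). It had not passed the test with any probiotic. CTSD read 7.98, 8.00 and 8.20 and then 7.21, 7.17 and 7.29, a fall of 0.84 (SE 0.11; limma adjusted p = 2.10e-05). CTSH read 10.76, 10.42 and 10.47 and then 9.71, 9.85 and 9.87, a fall of 0.74 (SE 0.09; limma adjusted p = 1.54e-05). In these 3 genes all supernatant arrays were below all medium arrays.

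CTSB read 12.61, 12.46 and 12.62 with medium and 12.11, 12.14 and 12.02 with supernatant, a fall of 0.48 (SE 0.05; limma adjusted p = 8.42e-06). Its 5 probe sets gave changes of -0.48 to -1.0, each called by limma. CTSA fell by 0.25 (limma adjusted p = 0.0093), so that it was lower in all 7 comparisons with medium. Without a trend this call was lost (limma adjusted p = 0.058). The same holds for its calls with live NCFM and B. lactis 420 and with their supernatants (limma adjusted p 0.057 to 0.13). CTSK, the collagen-degrading cathepsin of osteoclasts, fell by 0.64 (limma adjusted p = 0.0025), from 3.15, 3.03 and 3.49 to 2.65, 2.66 and 2.44. These supernatant values are under the floor of 2.78, so that it too was tested on the strength of its medium arrays and the size of its fall is uncertain. These 6 calls held without any 1 array. CTSL read 9.23, 9.21 and 9.28 with medium and 9.25, 9.29 and 9.21 with supernatant, a change of 0.01 (95% interval -0.14 to 0.16). CTSC, CTSG, CTSO and CTSZ did not pass the test, with changes between -0.14 and 0.07.

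LAMP1 read 13.14, 12.98 and 12.97 with medium and 13.15, 13.24 and 13.18 with E. coli supernatant, a rise of 0.16 (SE 0.05; limma adjusted p = 0.012) that was lost without the third medium array or the second supernatant array (adjusted p up to 0.067). The lowest supernatant array was just above the highest medium array, and probe set 213728_at read -0.08. LAMP3 changed by -0.07 and did not pass the test. LAMP2 depends on the probe set. On 200821_at, annotated to the transcript of isoform B, it read 10.99, 10.97 and 10.84 with medium and 11.03, 11.05 and 11.15 with supernatant, a change of 0.14 that did not pass the test. The other 3 probe sets all fell: 203041_s_at by 0.86, 203042_at by 0.91 and 226671_at by 1.86 (limma adjusted p = 8.2e-07, 3.71e-07 and 1.34e-08). On 226671_at the group means were 8.58 ± 0.13 (SD, n = 3) with medium and 6.71 ± 0.08 (SD, n = 3) with supernatant.

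**Figure D4:**
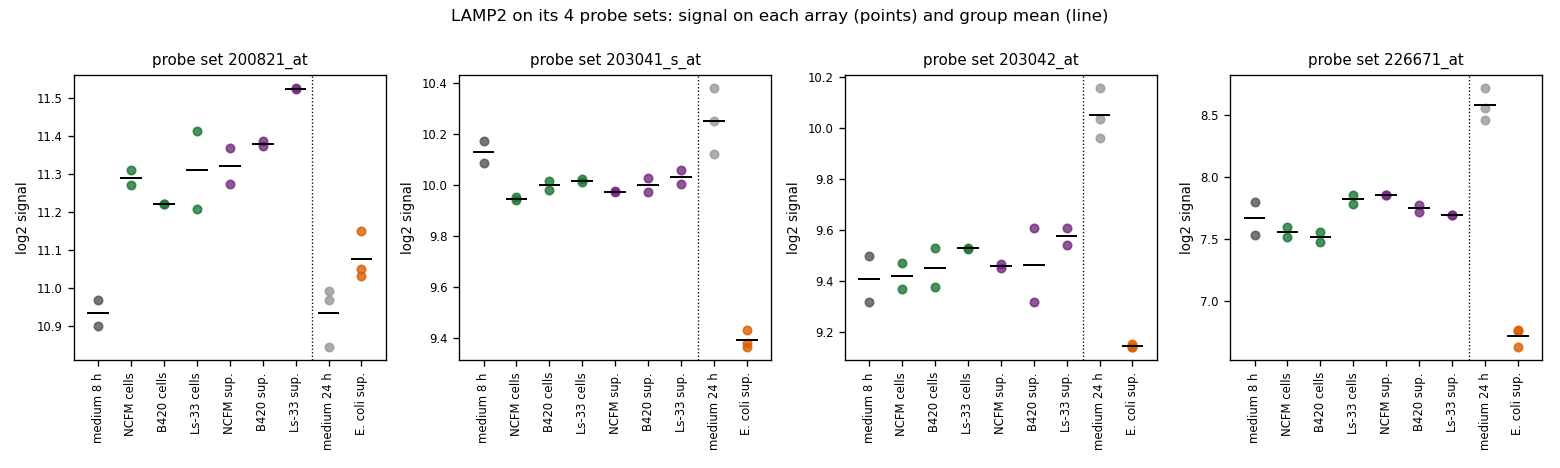
Log2 signal of LAMP2 on each of its 4 probe sets, by array (points) and group mean (line). On 200821_at all probiotic groups lie above 8 h medium, on the other 3 they lie near it, and the E. coli arrays lie below 24 h medium on 203041_s_at, 203042_at and 226671_at only.

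The probe sets of LAMP2 part in the probiotic set as well. The rise on 200821_at was not seen on 203041_s_at, which changed by -0.18, -0.13 and -0.11 with live NCFM, B. lactis 420 and Ls-33 (limma adjusted p = 0.031, 0.13 and 0.19) and by -0.16, -0.13 and -0.10 with their supernatants. Probe set 203042_at changed by 0.01 to 0.17 over the 6 comparisons and did not pass the test. The result for LAMP2 is therefore one of a single probe set. The annotation ties 200821_at and 203042_at to different transcripts, and whether each detects that form alone was not tested. ATP6V1C1 parted in the same way: with live B. lactis 420, 202872_at rose by 0.46 while 202873_at fell by 0.93, and with Ls-33 by 0.66 and 1.01 (all called by limma), with the chosen 202874_s_at at 0.03 and 0.01.

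Differences among the 3 live strains were tested directly. By an F-test over the 3 co-cultures 2 of the 32 genes differed, ATP6V1B2 and CTSH, a share of 6.25% beside 13.7% of all tested genes. The means of ATP6V1B2 were 9.49 for NCFM, 9.33 for B. lactis 420 and 9.15 for Ls-33, a range of 0.34 (limma adjusted p = 0.024), and CTSH 10.30, 10.28 and 10.06, a range of 0.24 (limma adjusted p = 0.038). In both genes the Ls-33 arrays were the lowest of the 6 and did not overlap the others. CTSZ, with a range of 0.77, did not pass the F-test (limma adjusted p = 0.062). Between Ls-33 and NCFM 3 genes differed, 9.38% beside 14.7% of all tested genes (8.13% higher and 6.55% lower with Ls-33): CTSZ was higher by 0.77 with Ls-33 (SE 0.23), ATP6V1B2 changed by -0.34 (SE 0.08) and CTSH by -0.24 (SE 0.07), with limma adjusted p-values of 0.027, 0.0077 and 0.026. In the contrast of Ls-33 with B. lactis 420, 0 genes passed limma's test, with 8 at an unadjusted p under 0.05, beside 5.58% of all tested genes (2.88% higher and 2.7% lower). For B. lactis 420 against NCFM it was 0 as well, with 5 at an unadjusted p under 0.05, beside 3.03% (2.28% higher and 0.759% lower). Single arrays decide these counts. Of the F-test, the count was 0 without the first Ls-33 array and 1 without the first B. lactis 420 array, and the Ls-33 against NCFM count was 0 without the first Ls-33 array and 1 without the first NCFM array. Without the first NCFM array 1 gene differed between B. lactis 420 and NCFM.

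Live bacteria at 8 h were also set against the supernatant of the same strain at 24 h, a comparison in which format and time cannot be told apart. With NCFM 5 genes differed (1 higher with cells, 4 lower), 15.6% beside 36.9% of all tested genes (18.6% higher, 18.3% lower). Joint quantile normalization gave 9 in its place, 6 higher and 3 lower. CTSZ was lowest with cells, by -1.34 (SE 0.23; limma adjusted p = 0.00012). With B. lactis 420 9 genes differed (6 higher, 3 lower), 28.1% beside 37.9% (22.2% higher, 15.7% lower), among them ATP6V0E2 at 0.60 and ATP6V0A2 at 0.58. With Ls-33 9 differed (1 higher, 8 lower), 28.1% beside 33% (16.6% higher, 16.3% lower): CTSZ changed by -0.74, ATP6AP1 by -0.45, CTSD by -0.37, CTSL by -0.26, CTSH by -0.25, ATP6V1B2 by -0.22, LAMP2 by -0.21 and ATP6V1A by -0.20, and LAMP3 was higher by 0.52. Whether the strains differ in this respect was tested by the interaction, where 0 of the 32 genes passed limma's test (4 at an unadjusted p under 0.05), beside 4.4% of all tested genes. Leaving out 1 array took the counts to 10 for NCFM without its first co-culture array, to 3 to 5 for B. lactis 420 without any 1 of its 4 arrays, to 2 to 5 for Ls-33 without any 1 of its 4, and the interaction to 1 without the first NCFM co-culture array or the first B. lactis 420 supernatant array.

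Regulators of lysosomal genes were read from the same fits, with alternatives for them added after the data were seen. TFEC, a member of the MiT family with TFEB, TFE3 and MITF, averaged 4.82 with 8 h medium and 2.68, 2.49 and 2.15 with live NCFM, B. lactis 420 and Ls-33, falls of 2.14, 2.33 and 2.66. With the supernatants it fell by 1.52, 1.18 and 1.84, and with E. coli supernatant by 2.04. All 7 limma calls held under every alternative run but the other probe sets, which had the same direction in each comparison and were both called in 4 of the 7. The co-culture means lie under the floor of the test, so the size of these falls is uncertain. MITF read 4.02 to 4.39 with 24 h medium and 7.73 to 7.93 with E. coli supernatant, a rise of 3.58 that its other probe set gave as 2.99. With live bacteria MITF rose by 0.69 with NCFM and 0.90 with Ls-33, calls that were lost without the first medium array, and with NCFM also without its second array, without a trend and with only the groups compared, and with Ls-33 without its first array. TFE3 rose by 0.34, 0.51 and 0.48 with the live strains and by 1.18 with E. coli supernatant. Its NCFM call was lost without the second medium array, and probe set 1565347_s_at read -0.34, -0.19 and -0.00 in the co-cultures. TFEB changed by -0.21 to 0.07 over the 7 comparisons and did not pass the test. In all, 10 of 17 tested regulators rose and 2 fell with E. coli supernatant, beside 36.3% higher and 27.8% lower of all tested genes. With live NCFM, B. lactis 420 and Ls-33, 5, 5 and 6 rose and 1, 2 and 1 fell. Beside these stand 16.8%, 18.3% and 19.4% higher and 18.4%, 16.9% and 19.3% lower of all tested genes. The list of regulators is not one of transcription factors alone, since it also holds LAMTOR4 and LAMTOR5, subunits of the Ragulator complex.

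Other lysosomal gene groups were counted in the same fits. As background, 36.3% of all tested genes were higher and 27.8% lower with E. coli supernatant. With the live strains 16.8% to 19.4% were higher and 16.9% to 19.3% lower. Of 8 further pump subunits and assembly factors, 5 rose and 2 fell with E. coli supernatant, and 3, 3 and 2 rose and 1 fell with each live strain. TCIRG1, the a3 subunit of osteoclasts and secretory lysosomes, fell by 0.78, 1.16 and 0.74 with the live strains and by 1.04 with E. coli. The calls with NCFM and Ls-33 were lost without the second medium array, and without the second NCFM array and the first Ls-33 array respectively. Of 18 lipases, lipid transfer proteins and other hydrolases, 1 rose and 11 fell with E. coli supernatant, and 1, 2 and 0 rose and 5, 3 and 6 fell with the live strains. NAAA, an acid amidase, fell by 0.83, 1.04 and 0.79 with the live strains and by 1.10 with E. coli, where the calls with NCFM and Ls-33 were lost without the second medium array. Of 16 glycosidases and sulfatases 4 rose and 8 fell with E. coli, among them FUCA1 at -1.01 and GLA, the enzyme lacking in Fabry disease, at 1.38.

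Of 22 further lysosomal membrane proteins and channels, 6 rose and 10 fell with E. coli supernatant, and 4, 3 and 3 rose and 5, 5 and 4 fell with the live strains. LAPTM5 fell by 1.75, 1.66 and 1.85 with the live strains and by 1.89 with E. coli, and the iron transporter SLC11A2 changed by -1.79, -1.59 and -1.76 and by -1.23, all called. Of the inhibitors of cathepsins, CST3 (cystatin C) fell by 0.57, 0.50 and 0.59 with the live strains and by 0.78 with E. coli, so that it moved in the same direction as CTSB and CTSD. CSTB, the cytosolic cystatin, rose by 0.43 with E. coli. Of 14 sorting genes 2 rose and 3 fell with E. coli, among them SORL1 at -1.31, which also read -0.88, -0.98 and -0.87 with the live strains, all called without any 1 array too. With the supernatants of NCFM, B. lactis 420 and Ls-33 SORL1 rose, by 0.28, 0.24 and 0.24 (limma adjusted p = 0.0055, 0.013 and 0.0100). Of 19 autophagosome genes 10 rose and 5 fell with E. coli, and 7, 9 and 8 rose and 1, 1 and 2 fell with the live strains. SQSTM1 (p62), the receptor that brings cargo to the autophagosome, rose in all 7 comparisons, by 0.71, 1.11 and 0.88 with the live strains, 0.57, 0.49 and 0.81 with the supernatants and 2.69 with E. coli. LGMN, the protease that processes cathepsins, rose by 0.24 with live B. lactis 420 and by 0.39 and 0.34 with the supernatants of B. lactis 420 and Ls-33, calls that were lost without the second medium array. With E. coli supernatant it changed by -0.06, which did not pass the test. Other counts with the live strains, in the order NCFM, B. lactis 420 and Ls-33, were 2, 4 and 3 higher and 2, 3 and 3 lower for the glycosidases, 1 higher each and 3, 2 and 3 lower for sorting, and 1 higher each and 3, 4 and 3 lower for 8 inhibitors. With the probiotic supernatants autophagosome genes gave 2, 3 and 2 higher and 0, 0 and 1 lower, regulators 1, 1 and 2 higher and 3, 4 and 2 lower, and further membrane proteins 2, 1 and 4 higher and 3, 2 and 2 lower. The shares of all tested genes are the background of these counts too. With E. coli supernatant they were 36.3% higher and 27.8% lower, and with the live strains 16.8% to 19.4% and 16.9% to 19.3%. With the probiotic supernatants they were 5.28%, 5.98% and 8.48% higher and 5.98%, 9.2% and 8.14% lower.

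Further genes of these groups, each among the called ones with the lowest adjusted p of its group in a comparison, were as follows, and all values given were called by limma without any 1 array too. Of the pump's assembly and regulatory factors, NCOA7 rose by 0.64 and 0.71 with live B. lactis 420 and Ls-33 and by 1.26 with E. coli, DMXL1 by 0.45 and 0.57 with live NCFM and Ls-33, and OXR1 by 0.59 with live NCFM, where another of its probe sets had the opposite sign. Of the autophagosome genes, GABARAPL1, a homologue of yeast Atg8, rose by 1.58 with E. coli, WIPI1 by 0.93 with live Ls-33, the cargo receptor OPTN by 0.41 with live B. lactis 420 and MAP1LC3B by 0.33 with Ls-33 supernatant. ATG12 rose by 0.46 with live NCFM on a probe set that another opposed. Of the inhibitors, SERPINB1, which blocks neutrophil serine proteases and cathepsin G, fell by 0.83, 0.74 and 0.81 with the live strains and by 1.46 with E. coli. One of its 4 probe sets gave called rises of 1.2, 1.08 and 0.57 with the live strains, so no direction can be given for it there.

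Among the hydrolases, the sulfatase IDS rose by 0.58 with live Ls-33 and by 0.81, 0.79 and 0.98 with the 3 probiotic supernatants, and the sialidase NEU1 by 0.32 and 0.35 with live NCFM and B. lactis 420. LIPA, the acid lipase, fell by 0.29 with live Ls-33 and by 0.80 with E. coli, SCPEP1, a carboxypeptidase, by 0.99 with E. coli, and NPC1, the cholesterol exporter, by 0.42 and 0.39 with live NCFM and B. lactis 420. For IDS and NPC1 with B. lactis 420 another probe set had the opposite sign. From the list of regulators, LAMTOR4, a subunit of the Ragulator complex, fell by 0.68, 0.61 and 0.61 with the probiotic supernatants. LAMTOR5 of the same complex rose by 0.36 with live NCFM on a probe set that another opposed. Of the membrane proteins, OSTM1, partner of a lysosomal chloride exchanger, rose by 1.34 with E. coli. Of the sorting genes, GGA2 rose by 1.69 with E. coli, and GGA1 fell by 0.66 and 0.71 with the supernatants of B. lactis 420 and Ls-33. Of the 4 other probe sets of GGA1, 0 and 1 were called lower, and the rest had the same direction without a call. GNPTAB, which makes the mannose 6-phosphate tag, rose by 0.52 with live Ls-33 and fell by 0.58 with E. coli. Its other probe set had the same direction without a call in both cases. ACP2, CD164, CLCN7, CLN3, GUSB, NPC2 and TPCN1 had calls of this rank with probiotics, each of which was lost without at least 1 of the arrays compared.

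Markers of other cell types moved with E. coli supernatant as well, where 36.3% of all tested genes were higher and 27.8% lower. Of the 4 tested leukocyte markers 3 were higher and 1 lower, with a summed log2 signal of all 8 of 29.1 to 30.2 with medium and 31.9 to 32.9 with supernatant. Of the 4 tested fibroblast markers 0 were higher and 3 lower, with sums over all 5 of 35.7 to 35.9 and 33.3 to 33.8. In the co-cultures the leukocyte sum was 26.9 to 28.9, beside 28.3 to 29.3 with 8 h medium. PTPRC, the marker that all leukocytes share, lay below the floor in both array sets. Of 4 measured markers of osteoclasts and intercalated cells, which use specialised pump subunits, SLC4A1 alone was above the floor, and it did not pass the test against medium. All arrays are of the Caco-2 line, and the part of these markers in the results was not tested. On such arrays, a change in how many cells express a marker and in its RNA per cell cannot be told apart.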

How the data were processed

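The deposited table holds the log2 signal of each probe set on 20 arrays. Per the submitters' processing notes, RMA was used by the authors; its version is not given in the sources used here, nor whether the array sets were processed jointly. Median log2 signal ran from 2.66 to 2.72, and r between replicate arrays from 0.994 to 0.997 over probe sets, which are not replicates. The number of arrays limits precision. Of 54675 probe sets, 41091 had 1 gene symbol, 1801 several, 11721 none, and 62 were controls; symbols were updated through Entrez identifiers to RefSeq, GRCh38.p14, except for 54 probe sets, and all 41 members matched. Where a gene had several probe sets, that of highest mean signal stood for it, with _x_at sets dropped if others existed. Genes at or above the 40th percentile of mean signal were tested (11865) with limma 3.58.1 in R 4.3.3 (lmFit, eBayes with trend) over the 14 arrays of the first set and the 6 of the second, with Benjamini-Hochberg adjustment and calls at 0.05.

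Groups came from the labels. The members and gene lists were chosen with earlier results of these data known. Array values are given for the 3 largest called rises and falls in each comparison with medium and for called members of the strain F-test. They were planned, whatever their values, for LAMP1, LAMP2, LAMP3, CTSB, CTSD, CTSL, CTSS, ATP6V0D1, ATP6V0D2, ATP6V1A, ATP6AP1 and ATP6AP2. For several of these they are given only for part of the groups or as a range. For further members array values were added after they were seen. From the other lysosome lists, the 2 called genes of lowest adjusted p per list and comparison (without a value where leaving out 1 array ended the call) and TFEB, TFE3, MITF, TFEC, TCIRG1, LGMN, CST3 and CSTB are named. The SORL1 values with probiotic supernatants are given whether or not the calls held without 1 array. Fits were tested on simulated data. Alternatives were no filter, the 60th percentile, no trend, joint quantile normalization, each probe set tested alone, other probe sets, only the groups compared, all 20 arrays for E. coli, a replicate block, and the omission of each array in turn.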

Additional observations from a re-analysis of the deposited data

Results flagged for a closer look

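The strains differed in their effect in 2 genes, by limma's F-test over the 3 co-cultures, which share 1 medium control, 6.25% of the 32 tested beside 13.7% of all tested genes. ATP6V1B2 had a range of 0.34 between the strain means (log2; limma adjusted p = 0.024), with Ls-33 lowest in both arrays. CTSH had a range of 0.24 (limma adjusted p = 0.038), again with both Ls-33 arrays lowest. Without the first Ls-33 array neither passed the test (adjusted p = 0.18 for each). ATP6V1B2 was lost also without either NCFM array (adjusted p = 0.063 and 0.059), and CTSH without the first B. lactis 420 array or the second Ls-33 array (adjusted p = 0.074 and 0.18).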

How the results depend on the processing

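Of 73 called changes (7 comparisons with medium and the F-test), 36 were called under every alternative other than probe sets, 37 were lost under at least 1 and 0 turned sign; apart from fewer arrays, the cause was not tested. Counts of called members were, without a trend, 8 for NCFM cells, 8 for B. lactis 420 cells, 1 and 2 for NCFM and B. lactis 420 supernatant, 1 for Ls-33 against NCFM, 3, 5 and 5 for cells against supernatant (NCFM, B. lactis 420, Ls-33) and 0 in the F-test. With only the groups compared they were 8 for NCFM cells and 1 for Ls-33 against B. lactis 420. With quantile normalization they were 5 for Ls-33 against NCFM, 1 for Ls-33 against B. lactis 420, 9 for NCFM cells against supernatant (6 higher, 3 lower, in place of 1 and 4) and 4 in the F-test. It also changed the split to 5 higher and 6 lower for NCFM cells, 1 and 1 and 3 and 3 for NCFM and B. lactis 420 supernatant, 1 and 4 for Ls-33 against NCFM, and 5 and 4 and 0 and 7 for B. lactis 420 and Ls-33 cells against supernatant; it moved the median of all genes by under 0.05. The 60th percentile gave 1 for Ls-33 against B. lactis 420, and no filter and every probe set alone gave 1 in the F-test. Leaving out 1 array gave 6 to 17 (NCFM cells), 6 to 9 (B. lactis 420 cells), 9 to 12 (Ls-33 cells), 1 to 3, 2 to 5 and 3 to 4 (their supernatants), 17 to 22 (E. coli), 0 to 4 (Ls-33 against NCFM), 0 to 0 (Ls-33 against B. lactis 420), 0 to 1 (B. lactis 420 against NCFM), 4 to 10, 3 to 5 and 2 to 5 (cells against supernatant), 0 to 3 (F-test) and 0 to 1 (interaction). The labels' replicate numbers did not pair the arrays (deviations of arrays with the same number correlated at r = -0.106 to 0.0592 over 21 pairs of groups in the first set and -0.14 to 0.0341 over 3 pairs of arrays in the second). With the replicate block the counts were 13, 13 and 13 for cells and 18 for E. coli, and 2 calls were lost, ATP6AP2 with Ls-33 cells and ATP6V0D1 with E. coli; no other call against medium changed.

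Other probe sets gave 58 readings of called changes, of which 19 were called in the same direction, 24 had the same direction without a call and 15 the opposite one. Opposite readings, called or against a call, were for LAMP2 -0.18 and -0.11 (NCFM cells), -0.13 and -0.15 (B. lactis 420 cells), -0.11 (Ls-33 cells), -0.16, -0.13 and -0.10 (supernatants) and -0.86, -0.91 and -1.86 (E. coli). They were -0.14 and -0.018 for ATP6AP2 with NCFM and Ls-33 cells and -0.029 with NCFM supernatant, 0.20 for CTSB with NCFM cells, -0.63 for LAMP1 with NCFM cells and -0.085 with E. coli, and -0.12 and -0.91 for ATP6V0A2 with B. lactis 420 cells and E. coli. For ATP6V0E1 they were -0.49 and -0.62 with B. lactis 420 cells, and for ATP6V1C1 -0.93 and -0.32 with B. lactis 420 cells, -1.01 with Ls-33 cells and 0.46 with B. lactis 420 supernatant.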
